A study of Mus musculus with 4 samples.

Results

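The 9 genes described here encode secreted proteins that set the WNT and BMP signals around the intestinal crypt, and they were chosen by symbol from 23284 gene symbols. They are 3 R-spondins (Rspo1, Rspo2 and Rspo3), 4 antagonists of BMP or activin ligands (Grem1, Chrdl1, Nog and Fst) and 2 BMP ligands (Bmp2 and Bmp4). All 9 symbols were found in each of the 4 libraries of the series. Messenger RNA was sequenced from the stroma of resected mouse colons, sorted as podoplanin-positive, living (7AAD-negative) cells without CD45, CD31 or EpCAM, the surface markers of leukocytes, endothelium and epithelium. The libraries are labelled IL-10 KO on the C57BL/6J strain, wild type (WT) on C57BL/6J, Rag2 KO on the BALB/c strain, and WT on BALB/c. IL-10 is a cytokine that restrains inflammation, and Rag2 encodes part of the recombinase that assembles the antigen receptors of lymphocytes. Each group has 1 library, and the labels used here do not state the number, age or sex of the animals behind it. No difference below has a replicate check, so none carries a p-value, and "higher" and "lower" are statements about these libraries. The library labelled IL-10 KO with C57BL/6J WT is called the C57BL/6J pair, and the library labelled Rag2 KO with BALB/c WT the BALB/c pair.

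R-spondins bind LGR receptors and remove the ubiquitin ligases RNF43 and ZNRF3 from the cell surface, which leaves more WNT receptors in place and keeps crypt stem cells dividing. BMP ligands act in the opposite sense: they favour differentiation and are held back near the crypt base by antagonists from the surrounding stroma. In the mouse intestine, the antagonist gremlin 1 (Grem1) and R-spondins are known products of fibroblasts and smooth muscle beneath the crypt, and BMP ligands are known products of the PDGFRA-high fibroblasts that lie directly under the epithelium.

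Expression is given as FPKM, fragments scaled for transcript length and for a total per library, as the authors deposited it. A log2 ratio is the difference between 2 libraries of log2(FPKM + 1), which understates the change of low genes. Genes with at least 1 FPKM in either library of a pair were compared, and an absolute log2 ratio of at least 1, a 2-fold difference, was counted. The total that scales each library can be read from long transcripts with few fragments, whose FPKM fall on whole multiples of 1 fragment. It is called the depth here and may differ from the number of mapped fragments, since the normalization between libraries is unknown. The depth was about 8329000 fragments for the library labelled IL-10 KO and 8625000 for C57BL/6J WT. In BALB/c the depth was 9679000 for the library labelled Rag2 KO and 10011000 for WT. From it, each FPKM was turned into an approximate number of fragments, and each pair of numbers into an exact (Clopper-Pearson) 95% counting interval for the log2 ratio of the FPKM with nothing added. These intervals cover counting error only, since copies made by PCR are not independent molecules, and say nothing of the spread between animals.

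Pdpn, the gene of the sort marker podoplanin, had 204 FPKM in the library labelled IL-10 KO against 158 in C57BL/6J WT, and 293 in the library labelled Rag2 KO against 189.6 in BALB/c WT. The deleted genes gave no check of the labels. Il10 had 129.9 FPKM in the library labelled IL-10 KO against 3.33 in C57BL/6J WT, and a value for the whole gene cannot tell which exons the fragments came from. Rag2 had 0.712 FPKM in the library labelled Rag2 KO and was listed at 0 in BALB/c WT. The RNA that coats the inactive X chromosome (Xist) and the Y-linked gene Ddx3y were at 44.9 and 0.0269 FPKM in the library with the IL-10 KO label, 23.02 and 16.9 in C57BL/6J WT, 0.105 and 31.5 in the library labelled Rag2 KO, and 0.0509 and 36.3 in BALB/c WT, so C57BL/6J WT held transcripts of both kinds. The libraries of the C57BL/6J pair thus differed in sex-linked transcripts. For every gene of that pair, the knockout label and sex cannot be told apart.

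**Figure D1:**
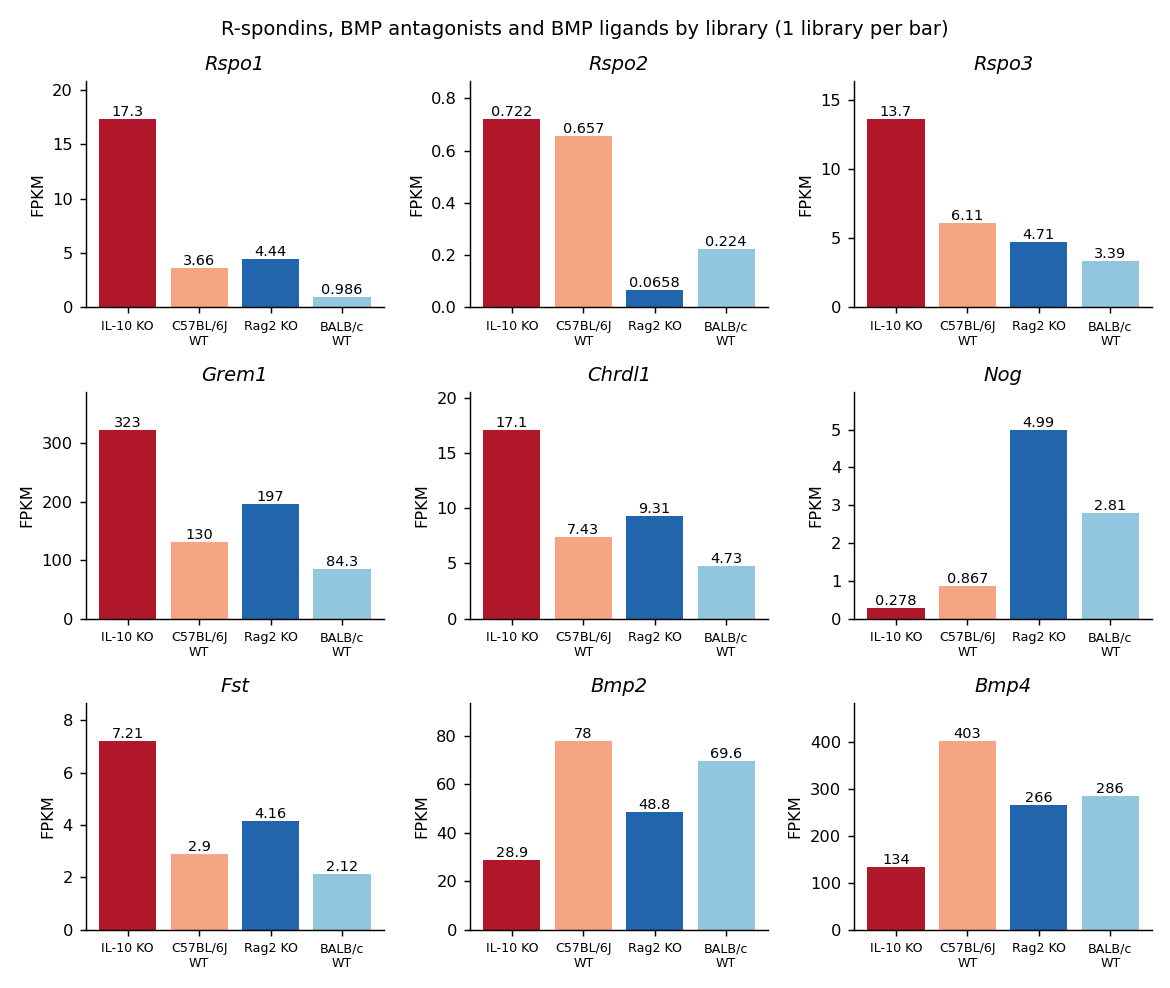
FPKM (vertical axis, linear, from 0) of each of the 9 genes in the 4 libraries, with 1 library per bar and the value above it. Rspo1, Rspo3, Grem1, Chrdl1 and Fst stood highest in the library labelled IL-10 KO, where Bmp2 and Bmp4 stood lowest.

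The library labelled IL-10 KO was at an extreme for all 9 genes. It held the highest value of the 4 libraries for 6 of them (Rspo1, Rspo2, Rspo3, Grem1, Chrdl1 and Fst) and the lowest for 3 (Nog, Bmp2 and Bmp4). For Rspo2 and Nog, the gap to the next library, C57BL/6J WT, was within counting error. Among the 13078 genes with at least 1 FPKM in any library, which leave out Rspo2, it was highest for 30.1% and lowest for 31.9%. In the C57BL/6J pair, 7 of the 9 genes passed the filter on low values. Of these, 5 were at least 2-fold higher, where 10.1% of the 12790 genes compared were, and 2 were at least 2-fold lower, where 3.82% were. The median log2 ratio of the 7 genes was 1.07, beside -0.0018 for all genes compared. Of the 9 genes in the BALB/c pair, 8 passed the filter, 2 of them were at least 2-fold higher (4.42% of 12336 genes were) and 0 at least 2-fold lower (2.03% were). Their median was 0.69, beside -0.0041 for all genes. Rspo1 and Grem1 were at least 2-fold higher in both pairs, which share no library. Of the 12048 genes compared in both, 3.3% were.

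Promoter sequence is shown for the 3 genes that the RefSeq promoter table of GRCm38.p6 holds, which are the R-spondin and the antagonist that were at least 2-fold higher in both pairs and the more abundant of the BMP ligands. Each is the 250 bases before the transcription start, 5′ to 3′ on the strand of the gene. Capitals mark GGCGCC, a GC-rich element bound by the SMAD proteins that relay BMP signals, and the GC box GGGCGG, each searched on both strands, and no marked matches overlapped. For Rspo1, the start in the table lies a little downstream of the gene's first base given further on.
Rspo1, chr4:124986180-124986429, plus strand: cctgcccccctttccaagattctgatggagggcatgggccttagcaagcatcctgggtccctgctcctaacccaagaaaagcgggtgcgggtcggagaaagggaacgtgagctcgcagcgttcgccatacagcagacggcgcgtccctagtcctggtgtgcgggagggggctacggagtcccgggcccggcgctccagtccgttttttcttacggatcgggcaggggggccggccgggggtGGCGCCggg
Grem1, chr2:113758649-113758898, minus strand: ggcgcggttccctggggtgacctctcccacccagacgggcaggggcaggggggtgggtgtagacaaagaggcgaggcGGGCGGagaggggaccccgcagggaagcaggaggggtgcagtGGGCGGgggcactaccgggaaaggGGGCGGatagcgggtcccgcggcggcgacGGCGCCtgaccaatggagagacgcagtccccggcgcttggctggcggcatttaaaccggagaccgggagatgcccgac
Bmp4, chr14:46390670-46390919, minus strand: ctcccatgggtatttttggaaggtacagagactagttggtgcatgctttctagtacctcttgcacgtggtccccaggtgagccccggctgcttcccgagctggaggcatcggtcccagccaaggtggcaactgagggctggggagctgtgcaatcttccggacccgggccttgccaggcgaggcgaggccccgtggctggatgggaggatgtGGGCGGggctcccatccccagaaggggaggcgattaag

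All 3 windows were rich in G and C, with 66.8% for Rspo1, 72% for Grem1 and 63.2% for Bmp4, beside a median of 52.4% over 32851 promoter windows of the same length. GGCGCC lay from 9 to 4 bases before the start of Rspo1 and from 78 to 73 bases before that of Grem1, and 9.59% of all windows hold it. Grem1 held 3 GC boxes and Bmp4 held 1, a motif found in 32.7% of windows. Grem1 also held a CCAAT box from 69 to 65 bases before its start (33.8% of windows) and Bmp4 an E-box, CACGTG, from 188 to 183 bases before it (6.02%). No window held the interferon-stimulated response element (2.98% of all windows), the gamma-activated sequence TTCNNNGAA (7.02%), the NF-kappaB consensus (3.9%), the TCF/LEF element CTTTGAT (3.21%) or the TATA box TATAAA (12.4%). These matches are a description of letters in a short window and not of binding.

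Of the R-spondins, Rspo1 showed the widest difference between libraries. Rspo1 (NCBI gene 192199; chromosome 4, 124986401 to 125009102 in GRCm38, the build also named mm10) encodes R-spondin 1, a stem cell growth factor of the intestine. It had 17.3 FPKM in the library labelled IL-10 KO against 3.66 in C57BL/6J WT, and 4.44 in the library labelled Rag2 KO against 0.986 in BALB/c WT. The plain ratio of FPKM was 4.75 in the C57BL/6J pair and 4.5 in the BALB/c pair. The log2 ratio was 1.98 in the C57BL/6J pair (with nothing added 2.25, counting interval 1.81 to 2.72, from about 235 against 51 fragments). It was 1.45 in the BALB/c pair (with nothing added 2.17, 1.38 to 3.06, from about 70 against 16 fragments). Rspo1 in the library labelled Rag2 KO and in C57BL/6J WT did not differ beyond counting error: against C57BL/6J WT, the library labelled Rag2 KO had a log2 ratio of 0.22. BALB/c WT had the lowest Rspo1 value of the 4.

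Rspo3 (NCBI gene 72780; chromosome 10, 29453106 to 29535867) encodes R-spondin 3, which in the mouse gut is a known product of fibroblasts beneath the crypt and of lymphatic endothelium. It had 13.7 FPKM in the library labelled IL-10 KO against 6.11 in C57BL/6J WT, a log2 ratio of 1.04 (with nothing added 1.16, counting interval 0.87 to 1.44). The 2-fold call is close to its threshold: rescaling the libraries without their small RNA rows gave 0.97. In BALB/c it had 4.71 FPKM in the library labelled Rag2 KO against 3.39 in WT, a log2 ratio of 0.38 that did not reach 2-fold (0.47 with nothing added, counting interval 0.079 to 0.86).

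Rspo2 (NCBI gene 239405; chromosome 15, 43020788 to 43171594), the R-spondin of highest WNT-amplifying potency in cell assays, was near the limit of detection. It had 0.722 FPKM in the library labelled IL-10 KO against 0.657 in C57BL/6J WT, and 0.0658 in the library labelled Rag2 KO against 0.224 in BALB/c WT, or about 19, 18, 2 and 7 fragments. A count of 3 fragments corresponds to between 0.0958 and 0.115 FPKM for this gene, and Rspo2 did not pass the filter in any comparison.

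The make-up of the R-spondin transcripts differed as well. Rspo1 made up 54.7% of the summed FPKM of the 3 genes in the library labelled IL-10 KO against 35.1% in C57BL/6J WT, and 48.2% in the library labelled Rag2 KO against 21.4% in BALB/c WT. Rspo3 made up 43.04% against 58.6%, and 51.1% against 73.7%, in the same pairs. The ratio of Rspo3 to Rspo1 was 0.787 in the library labelled IL-10 KO against 1.67 in C57BL/6J WT, and 1.06 in the library labelled Rag2 KO against 3.44 in BALB/c WT. Rspo1 was thus the leading R-spondin transcript in the library labelled IL-10 KO and close to level with Rspo3 in the library labelled Rag2 KO, whereas Rspo3 led in both WT libraries. The change of this ratio was 0.471-fold in the C57BL/6J pair (counting interval 0.329 to 0.674) and 0.309-fold in the BALB/c pair (0.169 to 0.564). Intervals for such a change, here and for Grem1 over Bmp4 below, are normal approximations on the log scale and not exact.

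**Figure D2:**
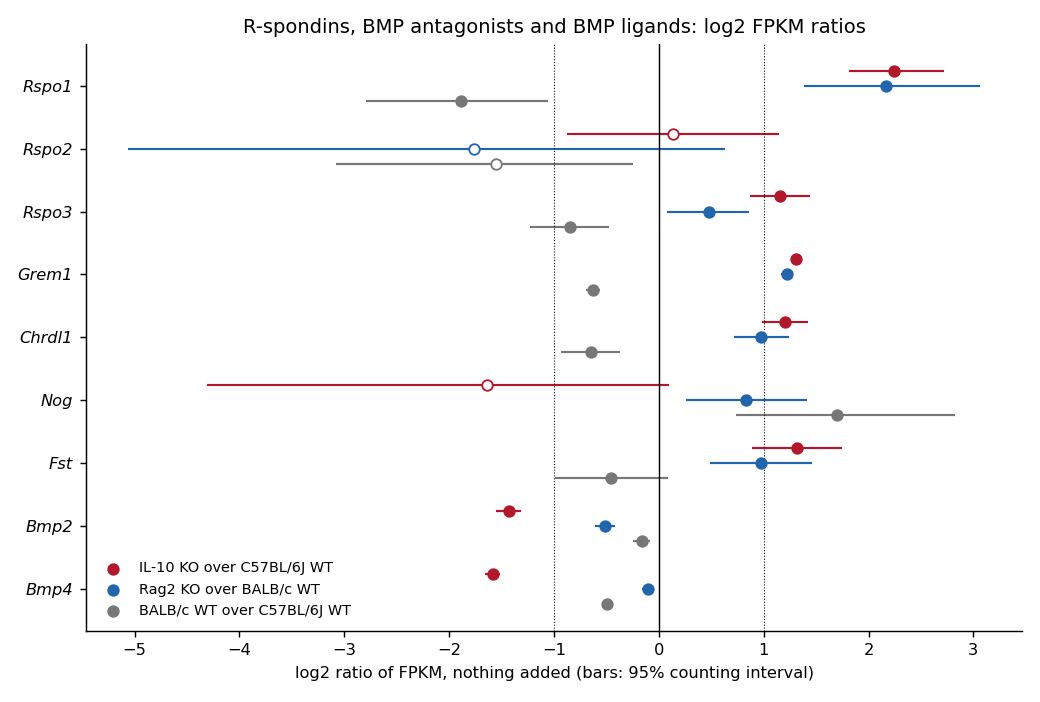
Log2 ratio of FPKM with nothing added (horizontal axis) for the 9 genes in 3 pairs of libraries, with 95% counting intervals as bars, dotted lines at 2-fold, and open points for genes under 1 FPKM in both libraries of a pair. Rspo1, Rspo3, Grem1, Chrdl1 and Fst lie to the right of 0 in both knockout comparisons and to the left of 0 in the WT comparison. The bar of Fst in the WT comparison holds 0. Bmp2 and Bmp4 lie to the left in all 3.

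Among the antagonists, Grem1 was by far the most abundant. Grem1 (NCBI gene 23892; chromosome 2, 113748675 to 113758648) encodes gremlin 1, which binds BMP2 and BMP4 and keeps them from their receptors. It had 323 FPKM in the library labelled IL-10 KO against 130.5 in C57BL/6J WT, and 197 in the library labelled Rag2 KO against 84.3 in BALB/c WT. Both libraries labelled as knockouts stood above both WT libraries. The log2 ratio was 1.30 in the C57BL/6J pair (with nothing added 1.31, counting interval 1.26 to 1.36, from about 10589 against 4431 fragments) and 1.21 in the BALB/c pair (with nothing added 1.22, 1.16 to 1.28, from about 7499 against 3322 fragments). Set against C57BL/6J WT, the library labelled Rag2 KO had a log2 ratio of 0.59, short of 2-fold. In the library labelled IL-10 KO, Grem1 exceeded 99.1% of all gene symbols listed, and it made up between 89.7% and 92.9% of the summed FPKM of the 4 antagonists in every library.

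Chrdl1 (NCBI gene 83453; chromosome X, 143285674 to 143394263) encodes chordin-like 1, a BMP-binding protein. It had 17.1 FPKM in the library labelled IL-10 KO against 7.43 in C57BL/6J WT, and 9.31 in the library labelled Rag2 KO against 4.73 in BALB/c WT. The log2 ratio of 1.10 in the C57BL/6J pair passed 2-fold, with 1.2 and a counting interval of 0.98 to 1.42 when nothing was added. That of 0.85 in the BALB/c pair did not (0.98 with nothing added, 0.71 to 1.24). Chrdl1 lies on the X chromosome, and Xist differed between the C57BL/6J libraries in the same direction. The part of sex was not tested in this difference or in that of any other gene of the C57BL/6J pair.

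Fst (NCBI gene 14313; chromosome 13, 114452262 to 114458989) encodes follistatin, which binds activins tightly and some BMPs more weakly. It had 7.21 FPKM in the library labelled IL-10 KO against 2.9 in C57BL/6J WT (log2 ratio 1.07), and 4.16 in the library labelled Rag2 KO against 2.12 in BALB/c WT (0.73). With nothing added these were 1.31 (counting interval 0.89 to 1.75) and 0.97 (0.49 to 1.46). The order of the 4 libraries was the same for Rspo1, Grem1, Chrdl1 and Fst, from the library labelled IL-10 KO through Rag2 KO and C57BL/6J WT to BALB/c WT. For Fst the last pair of that order, C57BL/6J WT and BALB/c WT, did not differ beyond counting error. For Rspo1 the same held for the library labelled Rag2 KO and C57BL/6J WT.

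Nog (NCBI gene 18121; chromosome 11, 89300638 to 89302559) encodes noggin, an antagonist that binds BMP4 with high affinity, and its pattern followed strain. It had 0.278 FPKM in the library labelled IL-10 KO against 0.867 in C57BL/6J WT, and 4.99 in the library labelled Rag2 KO against 2.81 in BALB/c WT. Both BALB/c libraries were above both C57BL/6J libraries. Xist also split the libraries by strain, with both C57BL/6J libraries above both BALB/c libraries, so strain and sex cannot be told apart here. Within C57BL/6J the values stand for about 3 and 11 fragments, a ratio of 0.32 whose log2 interval of -4.30 to 0.096 holds 0, and Nog did not pass the filter there. Within BALB/c the log2 ratio of 0.65 stayed under 2-fold.

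The BMP ligands ran the other way. Bmp4 (NCBI gene 12159; chromosome 14, 46383525 to 46390669) had 134 FPKM in the library labelled IL-10 KO against 403 in C57BL/6J WT, and 266 in the library labelled Rag2 KO against 286 in BALB/c WT. The log2 ratio was -1.58 in the C57BL/6J pair (with nothing added -1.59, counting interval -1.66 to -1.51, from about 2073 against 6445 fragments), and 135 of the 12790 genes compared had a lower ratio. In the BALB/c pair it was -0.11, and centring on the fibroblast markers brought it to -0.0028. Bmp4 exceeded 99.3% of all listed symbols in C57BL/6J WT and 97.9% in the library labelled IL-10 KO. GENCODE M21 places the gene Gm15217 on the opposite strand over Bmp4, and the sources used here do not give the strand setting of the counting. For the same reason, reads of antisense genes that GENCODE places over Rspo1, Rspo3 and Fst cannot be told apart from theirs. Gm20276 lies over Rspo3 on the same strand, so strand cannot separate its reads from those of Rspo3.

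Bmp2 (NCBI gene 12156; chromosome 2, 133552159 to 133562896), a ligand closely related to Bmp4, had 28.9 FPKM in the library labelled IL-10 KO against 77.95 in C57BL/6J WT, and 48.8 in the library labelled Rag2 KO against 69.6 in BALB/c WT. The log2 ratio was -1.40 in the C57BL/6J pair (with nothing added -1.43, counting interval -1.55 to -1.32), with 190 genes below it. In the BALB/c pair it was -0.50, in the same direction and short of 2-fold (with nothing added -0.51, -0.61 to -0.42). For both ligands the order from high to low was C57BL/6J WT, BALB/c WT, the library labelled Rag2 KO and the library labelled IL-10 KO. Bmp4 made up between 80.5% and 84.5% of the summed FPKM of the 2 ligands in every library.

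Ratios between genes of the same library do not depend on how libraries were scaled. The summed FPKM of Grem1, Chrdl1, Nog and Fst was 347 in the library labelled IL-10 KO against 142 in C57BL/6J WT, and 215 in the library labelled Rag2 KO against 93.9 in BALB/c WT. The summed FPKM of Bmp2 and Bmp4 was 163 against 481, and 315 against 356, in the same pairs. Transcripts of these 4 antagonists therefore outnumbered those of these 2 ligands per unit of length in the library labelled IL-10 KO. The ratio was 2.13 against 0.295 in C57BL/6J WT. It holds for these genes only. The further antagonists and modulators listed below summed to 960 against 967 FPKM in the C57BL/6J pair, and 921 against 905 in the BALB/c pair. The further BMP and GDF ligands summed to 121 against 306, and 208 against 298. With these lists, antagonists and modulators exceeded ligands in every library. In BALB/c the ratio was 0.684 in the library labelled Rag2 KO against 0.264 in WT. The WT libraries of the 2 strains were close to each other in this ratio, although their levels of Grem1 and Bmp4 differed. For Grem1 over Bmp4 alone, the ratio was 2.41 in the library labelled IL-10 KO against 0.324 in C57BL/6J WT, a change of 7.43-fold (counting interval 6.99 to 7.89). It was 0.74 in the library labelled Rag2 KO against 0.294 in BALB/c WT, a change of 2.52-fold (2.38 to 2.66).

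**Figure D3:**
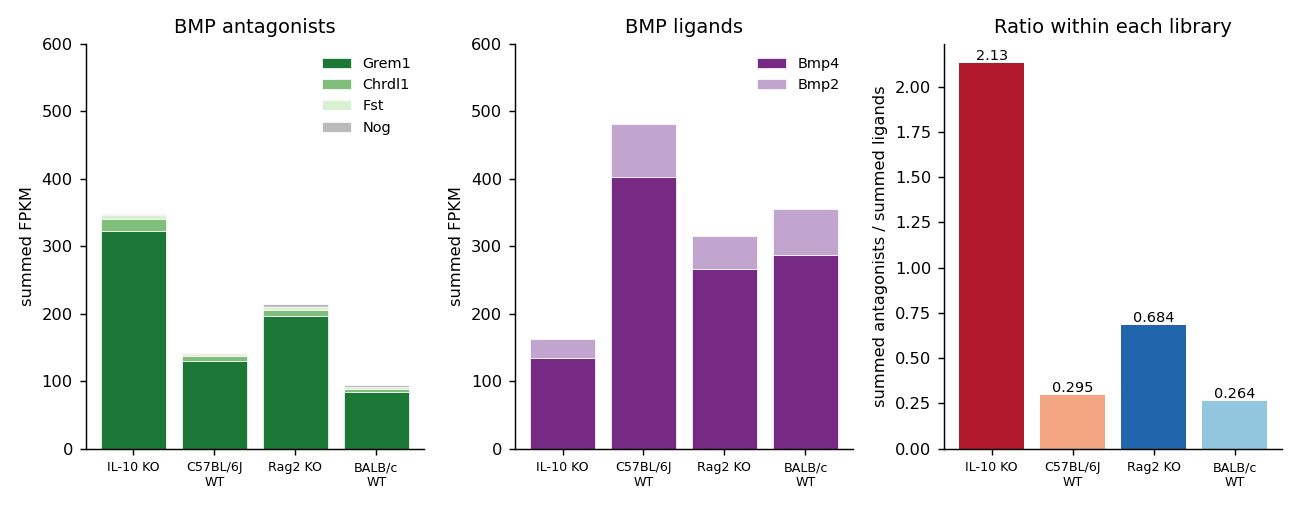
Summed FPKM of the 4 BMP antagonists (left) and of the 2 BMP ligands (middle), stacked by gene, and the ratio of the sums (right) in each of the 4 libraries. Grem1 and Bmp4 make up most of each bar, and the ratio was 2.13 in the library labelled IL-10 KO and between 0.264 and 0.684 in the other libraries.

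Levels were also set against general fibroblast genes of the same library. Relative to Col1a2, a chain of collagen I, Grem1 was 0.346 in the library labelled IL-10 KO against 0.109 in C57BL/6J WT, and 0.202 in the library labelled Rag2 KO against 0.0853 in BALB/c WT. Bmp4 relative to Col1a2 was 0.144 against 0.338, and 0.273 against 0.29, in the same pairs. Relative to Pdpn, which was itself higher in both libraries labelled as knockouts, Grem1 was 1.58 against 0.826, and 0.673 against 0.445. Rspo3 relative to Pdpn was 0.0669 against 0.0387 in the C57BL/6J pair and 0.0161 against 0.0179 in the BALB/c pair, so the direction of Rspo3 in BALB/c turned round with this scale.

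Some other ligands of the BMP family were lower and some were not. Of 14 further BMP and GDF ligands, 7 passed the filter in the C57BL/6J pair, with 3 of these lower by 2-fold or more and 0 higher (median log2 ratio -0.39). Bmp5 had 27.2 FPKM in the library labelled IL-10 KO against 159.8 in C57BL/6J WT (log2 ratio -2.51), Bmp7 had 10.9 against 50.6 (-2.12), and Bmp3, an atypical member that opposes other BMPs, had 2.91 against 8.11 (-1.22). The BALB/c pair had 2 of 7 at least 2-fold lower and 0 higher (median -0.32). Bmp5 had 58.2 FPKM in the library labelled Rag2 KO against 118 in BALB/c WT (-1.01) and Bmp3 had 5.54 against 13.5 (-1.15). Bmp6 was within 2-fold in both, at 50.4 against 65.3 FPKM (-0.37) in the C57BL/6J pair and 82.3 against 68.3 FPKM (0.27) in the BALB/c pair. Gdf10 had 21.2 against 12.8 FPKM (0.69) in the C57BL/6J pair and 6.81 against 8.15 (-0.23) in the BALB/c pair. Gdf6 had positive ratios in both, at 3.04 against 1.72 FPKM (0.57) in the C57BL/6J pair and 1.8 against 1.03 (0.47) in the BALB/c pair.

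Further antagonists went both ways. Of 13 listed, 9 passed the filter in the C57BL/6J pair, 2 of them at least 2-fold higher and 1 lower (median -0.31). Chrdl2, a relative of Chrdl1, had 25.9 FPKM in the library labelled IL-10 KO against 2.18 in C57BL/6J WT (log2 ratio 3.08). Bmper, a secreted BMP-binding protein, had 14.4 against 0.957 (2.97). Kcp, a chordin-type protein that in mouse kidney enhances BMP signalling, had 7.58 against 19.4 (-1.25). Bmper alone of 9 was at least 2-fold higher in the BALB/c pair, at 3.16 against 0.391 FPKM (1.58), a gene named after its values were seen, and 0 were lower (median 0.032). Chrdl2 there had 0.707 against 1.68 FPKM. The follistatin-like gene Fstl1 had the highest level of the list in the library labelled IL-10 KO, with 404 FPKM against 281 in C57BL/6J WT (0.52), and 421 in the library labelled Rag2 KO against 275 in BALB/c WT (0.61). Nbl1 had the highest level of the list in both WT libraries and went the other way. It had 388 against 480 FPKM (-0.31) in the C57BL/6J pair and 314 against 437 (-0.48) in the BALB/c pair, above Grem1 in every library.

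Target genes of BMP signalling were lower in part. Of 10 listed, 9 passed the filter in the C57BL/6J pair, 3 of them at least 2-fold lower and 0 higher (median log2 ratio -0.75). Id1, a direct BMP target that encodes an inhibitor of helix-loop-helix factors, had 55.9 FPKM in the library labelled IL-10 KO against 174 in C57BL/6J WT (-1.62). Id4 had 5.66 against 19.2 (-1.60), and Smad6, an inhibitory SMAD that limits BMP signalling, had 4.82 against 13.1 (-1.27). Id3, the most abundant of them, had 982 against 1472 (-0.58), while Id2 had 113 against 107 (0.08). Id4 alone of 9 was at least 2-fold lower in the BALB/c pair, at 8.59 against 19.6 FPKM (-1.10), while 0 were higher (median -0.30). Id1 there had 96.7 FPKM in the library labelled Rag2 KO against 166 in BALB/c WT (-0.77).

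Most receptors and SMADs of the pathway were within 2-fold. In the C57BL/6J pair 13 of 14 listed genes passed the filter, 2 of them at least 2-fold lower and 0 higher (median -0.26). Smad9, which relays BMP signals, had 2.08 FPKM in the library labelled IL-10 KO against 6.03 in C57BL/6J WT (-1.19), and the type I receptor gene Acvr1 had 17.6 against 36.2, just past 2-fold. With centring on the fibroblast markers, 0 were 2-fold lower. By the same measure 0 of 13 were 2-fold apart in the BALB/c pair (median -0.018). Activins, the main ligands bound by follistatin, are a separate list of 6 genes with their receptors. Of the 4 that passed in the C57BL/6J pair, 2 were at least 2-fold higher and 0 lower (median 1.18): Inhba, the activin A subunit, with 10.8 against 3.03 FPKM (1.55), and Inhbb, named after its values were seen, with 4.38 against 1.07 (1.38). The activin receptor gene Acvr1b was the 1 gene of 4 at least 2-fold higher in the BALB/c pair, with 18.1 FPKM in the library labelled Rag2 KO against 8.26 in BALB/c WT (1.05), 0 were lower and the median was 0.37.

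Of the receiving side of the R-spondins, the LGR receptors were low in these stromal libraries and the co-receptors were not. Of 9 genes of R-spondin receptors, their ligases and WNT co-receptors (the list includes Rspo4), 5 passed the filter in each knockout comparison, and 0 were at least 2-fold apart in either (medians -0.08 and -0.11). Lgr5, the receptor of crypt stem cells, had at most 0.102 FPKM in any library, Lgr6 was listed at 0 in all 4, and Lgr4 had 3.19 FPKM in the library labelled IL-10 KO against 3.46 in C57BL/6J WT. Sdc4, a syndecan of the cell surface, was the most abundant of the list, with 193 FPKM in the library labelled IL-10 KO against 159 in C57BL/6J WT (0.28), and 272 in the library labelled Rag2 KO against 137 in BALB/c WT (0.98). The WNT co-receptor gene Lrp5 had 19.5 against 38.6 FPKM (-0.95) in the C57BL/6J pair and 27.1 against 33.1 (-0.28) in the BALB/c pair, and Lrp6 had 21.7 against 22.98 (-0.08) and 14.9 against 16.2 (-0.11). Of 11 target genes of WNT and beta-catenin, 7 passed in the C57BL/6J pair and 0 were 2-fold apart (median -0.17). Axin2, a general WNT target, had 4.35 against 6.21 FPKM there, and 4.79 against 4.9 FPKM in the BALB/c pair. Among the 8 that passed in the BALB/c pair 0 were higher and 1 lower (median -0.04): Lef1, named after its values were seen, with 0.642 against 2.54 FPKM (-1.11).

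**Figure D4:**
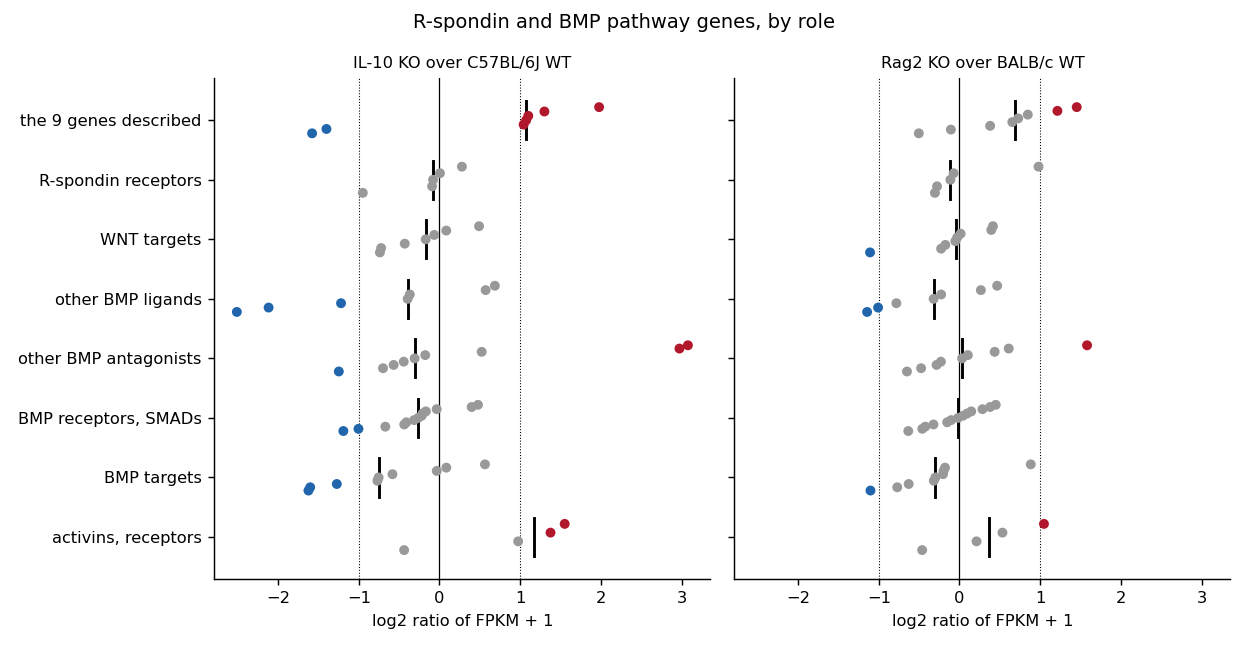
Log2 ratio of FPKM + 1 (horizontal axis) of each gene that passed the filter, by role, in the C57BL/6J pair (left) and the BALB/c pair (right), with the median as a black line, dotted lines at 2-fold, red at least 2-fold higher and blue at least 2-fold lower. Ligands and target genes of BMP lie mostly left of 0 in the C57BL/6J pair, with medians of -0.39 and -0.75, and WNT targets lie near 0.

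Among markers of the fibroblast types known for these factors, most PDGFRA-high genes were at least 2-fold lower in the C57BL/6J pair. Most CD34+ CD81+ genes were within 2-fold in both pairs. Of all genes compared, 10.1% were at least 2-fold higher and 3.82% lower in the C57BL/6J pair, and 4.42% and 2.03% in the BALB/c pair. Of 10 genes of PDGFRA-high subepithelial fibroblasts, 8 were at least 2-fold lower and 0 higher in the library labelled IL-10 KO, with a median log2 ratio of -1.88 and a summed level of 226 FPKM against 604 in C57BL/6J WT. This list holds Bmp5 and Bmp7, also counted above, but neither Bmp2 nor Bmp4. Enho had 9.17 against 63.8 FPKM (-2.67), Ednrb 1.62 against 15.4 (-2.64) and Wnt4 6.45 against 34.1 (-2.24). Of the same 10, 3 were at least 2-fold lower in the BALB/c pair (Sox6 at -1.18, Ednrb at -1.08 and Bmp5) and 0 higher, with a median of -0.80 and summed levels of 372 FPKM against 573 in BALB/c WT. Of 6 genes of CD34+ CD81+ fibroblasts at the crypt base, Cd81 was at least 2-fold higher in the library labelled IL-10 KO. It had 139.9 against 65.5 FPKM (1.08), 0 genes of the list were lower and the median was 0.15. Rescaling without small RNA rows left 0 of the list higher and 1 lower. Within 2-fold, Sfrp1 (0.64), Cd34 (0.17) and Wnt2 (0.13) had positive ratios there, and Wnt2b (-0.89) and Ccrl1 (-0.075) negative ones. In the BALB/c pair Ccrl1, the older symbol of Ackr4, was at least 2-fold higher, at 38.1 FPKM against 11.4 in BALB/c WT (1.66), 0 were lower and the median was 0.51. In bulk RNA, fewer cells of a type and less RNA per cell cannot be told apart, and the part of these lists in the values of Bmp2, Bmp4 and Grem1 was not tested.

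Most defining fibroblast markers were within 2-fold, whereas most genes of epithelium were not. The genes named from the marker lists here were chosen after their values were seen. Of 10 fibroblast markers, 1 (Col6a1) was at least 2-fold lower and 0 higher in the C57BL/6J pair (median -0.27), and 0 were 2-fold apart in the BALB/c pair (median -0.10). Epithelial markers were at least 2-fold higher, 10 of 10 in the C57BL/6J pair with a summed level of 359.9 FPKM against 89.8 in C57BL/6J WT, and 9 of 10 in the BALB/c pair with 136 against 48.4 in BALB/c WT. Leukocyte markers were at least 2-fold higher for 10 of 10 in the C57BL/6J pair, with a sum of 1053 FPKM against 128, and for 3 of 10 in the BALB/c pair (1 was lower), with a sum of 509.9 against 272. None of these epithelial and leukocyte markers was at 0 in any library. In the BALB/c pair the lower leukocyte marker was the B cell gene Cd79a (-2.76), and the remaining 6 were within 2-fold. Rspo1, Grem1, Chrdl1 and Fst were higher in both pairs too, and the part of these lists in their values was not tested.

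Markers of other stromal types differed by type. Smooth muscle markers were at least 2-fold lower for 5 of 8 in the C57BL/6J pair (sum 307 FPKM against 699 in C57BL/6J WT) and for 3 of 8 in the BALB/c pair (sum 389.6 against 726 in BALB/c WT), with 0 higher. The C57BL/6J count was 2 with centring on the fibroblast markers, 3 with a pseudocount of 5 and 8 with rescaling. Lymphatic endothelium markers had a sum of 43.9 against 71.1 FPKM, with 2 of 6 (Lyve1 and Mmrn1) at least 2-fold lower, and of 59.7 against 103 FPKM, with 0 of 6 apart. Rspo3, which lymphatic endothelium expresses, had log2 ratios of 1.04 in the C57BL/6J pair and 0.38, short of 2-fold, in the BALB/c pair. In the BALB/c pair its direction turned round relative to Pdpn. The part of lymphatic endothelium in the values of Rspo3 was not tested. Of the 6 mesothelium markers found, Msln, Upk3b, Upk1b and Lrrn4 stayed under 1 FPKM in every library, and Msln and Lrrn4 were listed at 0 in BALB/c WT. The remaining 2, Krt19 and Wt1, were at least 2-fold higher in the C57BL/6J pair, and Krt19, which epithelium shares, in the BALB/c pair. Of 5 pericyte markers that passed the filter, Cspg4 was at least 2-fold lower in both comparisons, blood endothelium markers had medians of 0.21 and -0.0043 with 0 of 7 apart, and markers of glia and neurons had 0 of 3 apart. Of the 2 markers of interstitial cells of Cajal, Ano1 was at least 2-fold lower in the BALB/c pair.

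**Figure D5:**
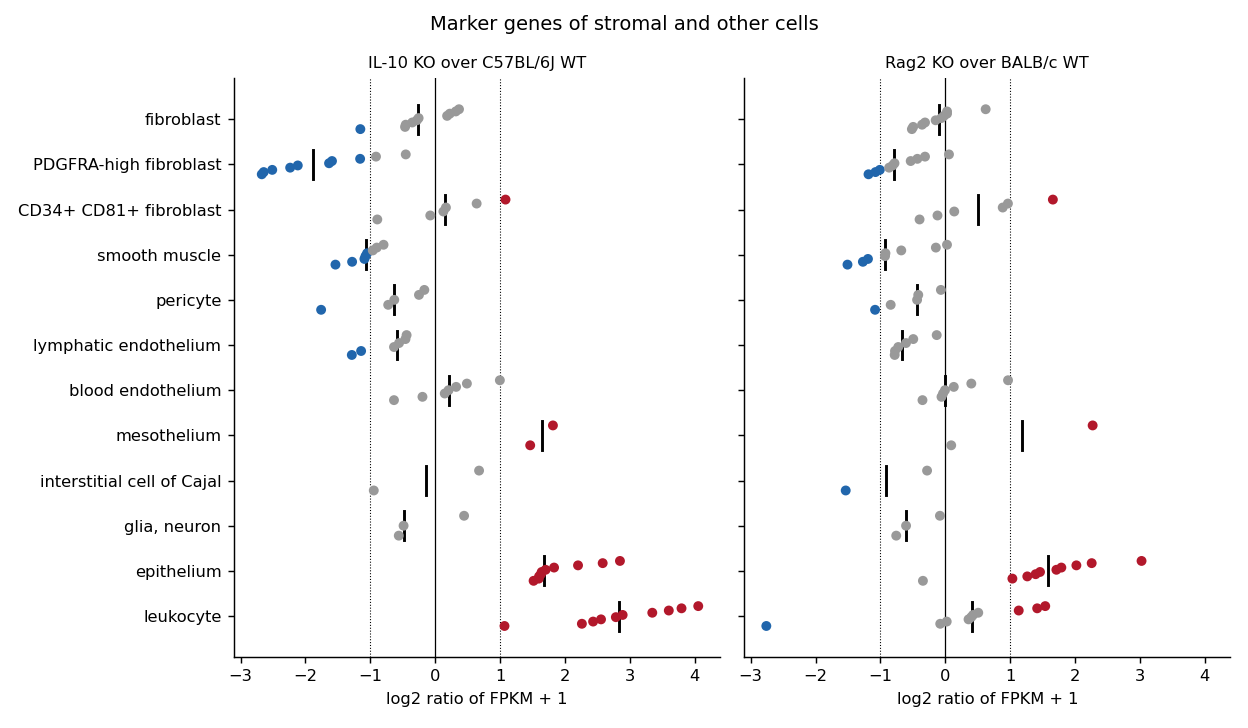
Log2 ratio of FPKM + 1 (horizontal axis) of marker genes that passed the filter, by cell type, in the C57BL/6J pair (left) and the BALB/c pair (right), with the median as a black line, dotted lines at 2-fold, red at least 2-fold higher and blue at least 2-fold lower. Fibroblast markers lie around 0, PDGFRA-high fibroblast and smooth muscle markers to the left, and epithelial markers to the right in both panels.

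The WT libraries of the strains were compared in the same way. In BALB/c WT against C57BL/6J WT, 8 of the 9 genes passed the filter, with 1 at least 2-fold higher (1.81% of 12290 genes were) and 1 at least 2-fold lower (2.17% were), and a median log2 ratio of -0.52 beside 0.0044 for all genes. Nog was the higher gene, with 2.81 FPKM in BALB/c WT against 0.867 in C57BL/6J WT (1.03). Rspo1 was the lower, with 0.986 against 3.66 (-1.23). The others were all lower in BALB/c WT and within 2-fold: Rspo3 (-0.70), Grem1 (-0.62), Chrdl1 (-0.56), Bmp4 (-0.49), Fst (-0.32) and Bmp2 (-0.16). Both calls rest on low values, about 42 against 11 fragments for Nog and 16 against 51 for Rspo1. Of the 6 genes of CD34+ CD81+ fibroblasts, Wnt2 was at least 2-fold higher (12.2 against 5.58 FPKM) and Ccrl1 at least 2-fold lower (11.4 against 41.7 FPKM) in BALB/c WT. Of the remaining pathway lists, 0 genes were 2-fold apart between the WT libraries, PDGFRA-high fibroblast genes included. In BALB/c WT, 4 of 10 epithelial markers were at least 2-fold lower and 5 of 10 leukocyte markers at least 2-fold higher, while Rspo1, Grem1, Chrdl1 and Fst were lower, and the part of these markers in the values of the 9 genes was not tested. This comparison shares a library with each of the knockout comparisons. Xist also differed between the WT libraries, at 0.0509 FPKM in BALB/c WT against 23.02 in C57BL/6J WT. Strain and sex therefore cannot be told apart.

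The genes called in the library labelled Rag2 KO depended on which WT library it was set against. Set against BALB/c WT in place of C57BL/6J WT, the library labelled IL-10 KO had 5 of the 9 genes at least 2-fold higher, Rspo1 (3.21), Grem1 (1.93), Rspo3 (1.74), Chrdl1 (1.66) and Fst (1.40), and 3 at least 2-fold lower, Nog (-1.58), Bmp2 (-1.24) and Bmp4 (-1.09). Set against C57BL/6J WT, the library labelled Rag2 KO had 1 gene at least 2-fold higher, Nog (1.68), in place of Rspo1 and Grem1, and 0 lower. These crossed ratios, added after the data were seen, contain the strain difference and the difference in Xist that goes with it. With controls exchanged in this way, 10.7% of all genes compared passed 2-fold upwards in the library labelled IL-10 KO and 4.30% downwards. For the library labelled Rag2 KO, these shares were 5.12% and 2.96%.

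Among the 9 genes, Chrdl1, Fst and Grem1 had profiles near one another over the 4 libraries, as did Bmp2 and Bmp4. Likeness was measured as the Euclidean distance between log2(FPKM + 1) profiles after subtracting each gene's mean, over 7 genes with at least 5 FPKM in any library, and it is a description over 4 libraries. Chrdl1 and Fst were nearest (0.207), followed by Grem1 and Chrdl1 (0.296) and by Bmp2 and Bmp4 (0.311). Next came Grem1 and Fst (0.416) and Rspo3 and Chrdl1 (0.478), while Rspo1 and Bmp2 were farthest apart (3.28). Among 8814 other genes with at least 5 FPKM in any library, those nearest to Grem1 were Smagp (0.11), Figf (0.122), the older symbol of the lymphatic growth factor gene Vegfd, and the tight junction gene Cldn4 (0.158). For Chrdl1 they were Lsr (0.0733), Efhd2 (0.078) and Cd81 (0.0976). For Fst they were Gfpt2 (0.11), Stx11 (0.112) and Slc39a11 (0.112), and for Rspo3 Gmds (0.201), Plxdc2 (0.227) and Tek (0.234). The genes nearest to Rspo1 were H2-M2 (0.205), Pigr (0.314), the epithelial receptor that carries IgA, and the keratin gene Krt7 (0.332). For Bmp2 they were Ptch1, the hedgehog receptor and target gene (0.0873), Ston1 (0.113) and Pard6g (0.126), and for Bmp4 Tmem119 (0.091), Fgfr2 (0.135) and Snhg3 (0.167). Of the 8814 genes, between 9 (for Rspo1) and 281 (for Bmp2) lay within a distance of 0.5. A near profile over 4 libraries does not show that 2 genes are linked.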

How the data were processed

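Per the file headers, the deposited values are FPKM, computed by the authors, 1 per gene symbol and library. The tools and build recorded by the submitters' processing notes are mm10, Cuffdiff 2.2.1, TopHat2 2.1.1, SAMtools 0.1.18 and Bowtie2 2.2.8. Per the labels' protocols, the library kit was TruSeq stranded mRNA. The annotation, strand setting and normalization by Cuffdiff are unknown here.

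The 9 genes, the lists (9 of pathways and fibroblast types, 10 of markers; 164 of 165 entries found) and the rules were chosen with earlier results of these data known. One gene of the antagonist list was taken out and is not reported here. List genes are named where they are among the 4 widest 2-fold differences of their list with at least 5 FPKM in the higher library. List genes named within 2-fold were chosen after their values were seen. Depth came from transcripts of at least 1000 nt (GENCODE M21) with a length offset of 210 nt. Between 74.2% and 76.4% of the values used lay within 0.1 of a whole fragment. Fragments per gene are approximate, since 1 transcript stood for each gene. The scripts were tested on simulated data. Alternatives were pseudocounts of 0.1 and 5, filters of 0 and 5 FPKM, 3 scalings and the other WT library as control. Python 3.11.15, pandas 2.3.3 and SciPy 1.17.1 were used.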

Additional observations from a re-analysis of the deposited data

Results flagged for a closer look

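The comparisons with the libraries labelled IL-10 KO and Rag2 KO went in opposite directions for Nog and Rspo2, and with 1 library per group the difference was not tested. The log2 ratio of Nog was -0.55 in the C57BL/6J pair and 0.65 in the BALB/c pair, a difference of -1.20. Within C57BL/6J it rests on about 3 fragments in the library labelled IL-10 KO against 11 in WT. The log2 ratio of Rspo2 was 0.056 in the C57BL/6J pair and -0.20 in the BALB/c pair, a difference of 0.26, with every value under 1 FPKM.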

How the results depend on the processing

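No paired analysis was possible because each group has 1 library, and no replicate could be left out. No log2 ratio of the 9 genes at least 2-fold apart changed sign under the alternatives run. With a pseudocount of 5, genes at least 2-fold higher numbered 2 in the C57BL/6J pair (Rspo1 and Grem1) and 1 in the BALB/c pair (Grem1). Of all genes compared, 4.78% and 2.25% were. Between the WT libraries 0 were higher and 0 lower (0.456% and 0.846% of all genes). With a filter of 5 FPKM, 1 was higher in the BALB/c pair (4.71% of all genes). Between the WT libraries, 0 were then higher and 0 lower (1.48% and 2.08% of all genes). With the other WT library as control, chosen after seeing the data, 1 gene was higher in the library labelled Rag2 KO (5.12% of all genes compared were). A larger pseudocount or filter shrinks or drops low genes by construction. Rescaling without small RNA rows shifted the median of all genes by -0.13 in the C57BL/6J pair and by -0.14 in the BALB/c pair, and left 4 of the 9 genes higher in the C57BL/6J pair (Rspo3 at 0.97). Centring on the fibroblast markers shifted it by 0.27 in the C57BL/6J pair and by 0.10 in the BALB/c pair, with the counts of the 9 genes as before. Over all genes of the C57BL/6J pair, 1297 were higher and 488 lower as reported, 1385 and 834 after rescaling, 1732 and 252 after fibroblast centring, 611 and 182 with a pseudocount of 5, and 1665 and 787 with 0.1. For the BALB/c pair these were 545 and 251, 592 and 553, 646 and 179, 278 and 68, and 780 and 532. Between the WT libraries they were 223 and 267, 416 and 340, 271 and 225, 56 and 104, and 477 and 452. Counts in the lists changed as well: PDGFRA-high fibroblast genes lower in the C57BL/6J pair (8 of 10) numbered between 5 and 9, and epithelial markers higher in the BALB/c pair (9 of 10) numbered 4 with a pseudocount of 5 and 2 against C57BL/6J WT. The ratio of summed antagonists to ligands changed by between 6.95-fold and 8.07-fold in the C57BL/6J pair and by between 2.32-fold and 2.59-fold in the BALB/c pair over the alternatives run. Depth limits Rspo2 in all libraries and Nog in C57BL/6J.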
